A study of Mus musculus with 207 samples.

Results

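The cultures described here are bone marrow-derived macrophages in which a score of S100a8, S100a9 and Lcn2, transcripts best known from neutrophils, was highest or lowest for their place in the series. Each mouse gave 1 Affymetrix 430v2 array, and 90 of 207 arrays were compared. The mice were 16 week old F2 animals of both sexes from a cross of AKR and DBA/2 strains, and every animal, in every group, was apoE-deficient. Marrow cells that adhered to the dish were grown for 2 weeks in a medium of DMEM, 10% serum and, as the source of M-CSF, 20% medium conditioned by L cells. No group received a treatment, and the labels name no culture batch, extraction or hybridization date. Each culture came from 1 mouse, so that the spread within a group holds both the F2 genotypes and the culture.

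Within each sex a score was computed for each array as the mean z score, on the log2(signal + 1) scale, of the brightest probe sets of S100a8, S100a9 and Lcn2. The residual of the score on the rank of the code number in the sample title was taken, and the arrays with the highest and the lowest residuals, 1 in 4 of each sex at either end, were compared. This gave 23 high and 23 low arrays of 93 females. In males 24 arrays with code numbers 55 to 78 were left out, and 22 high and 22 low arrays of the other 90 were compared. The groups were chosen on the same arrays that are compared, so that the comparison describes what goes with these transcripts and tests no treatment. What the code number stands for is not given.

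Neutrophils make their granule proteins in a fixed order as they mature in the marrow, with Elane and Mpo in primary granules, Ltf, Camp, Ngp and Lcn2 in secondary granules and Mmp9 later. S100a8 and S100a9 form calprotectin, a protein complex abundant in the cytosol of neutrophils. Macrophages also transcribe S100a8 and Lcn2 after inflammatory stimuli, and Lcn2, or lipocalin 2, binds bacterial siderophores and so withholds iron.

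The signals of the score genes fit the name of the groups only in part. S100a8 ranged from 1308 to 18798 MAS5 units with a median of 3082 in the high females, and from 234 to 6674 with a median of 1585 in the low females. In males the medians of S100a8 were 9120 in the high and 1312 in the low group. Lcn2 medians were 4464 and 2655 in females and 8410 and 1029 in males. The third score gene was near the background in all cultures. S100a9 reached at most 60 units in females and 77.7 in males, and no array reached 100, so that its medians of 19.2 against 2.5 in females and 20.5 against 3.75 in males are differences among near-background values. These values chose the groups and are given without a test. Just inside and just outside the upper limit, S100a8 was 2681 and 847 in females and 10642 and 6090 in males. At the lower limit the array just inside had 1695 and the one just outside had 737 units of S100a8 in females, and in males 1279 and 349. In each sex the low array just inside thus had more S100a8 than the one just outside. Each score gene had the same weight, so that S100a9 took part in setting the groups. In females the high array had more S100a9 in 88.7% of pairs of a high and a low array. For S100a8 this share was 85.4% and for Lcn2 78.3%. Male shares were 88.3%, 87.6% and 89.3% in the same order. The lowest Lcn2 signal among the high females, 488 units, came from an array with 33.1 units of S100a9. The lowest S100a8 signal in the high males was 607 units, and the highest among the males between the groups was 9837. The groups are called high and low by their score, and neither name says that each array was high or low in every score gene.

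Macrophage transcripts were abundant in both groups. The summed signal of 6 macrophage markers, among them Adgre1, Csf1r and Cd68, had a median of 85388 in the high and 88970 in the low females, and of 94230 and 96542 in males. The bright Adgre1, Csf1r and Cd68 make up most of this sum, and Mrc1, another of the 6, fell in both sexes, as given below. Of 8 neutrophil markers outside the score, 5 had medians under 100 in both groups of both sexes, namely Ngp, Ltf, Cxcr2, Mpo and Elane. The highest signal of these 5 in any compared array was 127 units, for Elane. Csf3r, the receptor of G-CSF, had similar medians of 4880 and 5463 in females and 4559 and 4596 in males, with fitted log2 differences of 0.04 and 0.07 that did not pass the test. Camp, which encodes cathelicidin, differed by 0.18 ± 0.22 (log2, SE) in females, adjusted p = 0.58, and rose by 0.92 ± 0.16 in males, adjusted p = 6.2e-05 (limma). Only Mmp8, neutrophil collagenase, rose in both sexes. The summed level of all 8 markers was 12043 against 7858 in females and 16764 against 6531 in males, and Mmp8 and Csf3r make up most of it. The name neutrophil therefore goes beyond these signals. In bulk cultures, fewer cells of a type and less RNA per cell cannot be told apart.

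**Figure D1:**
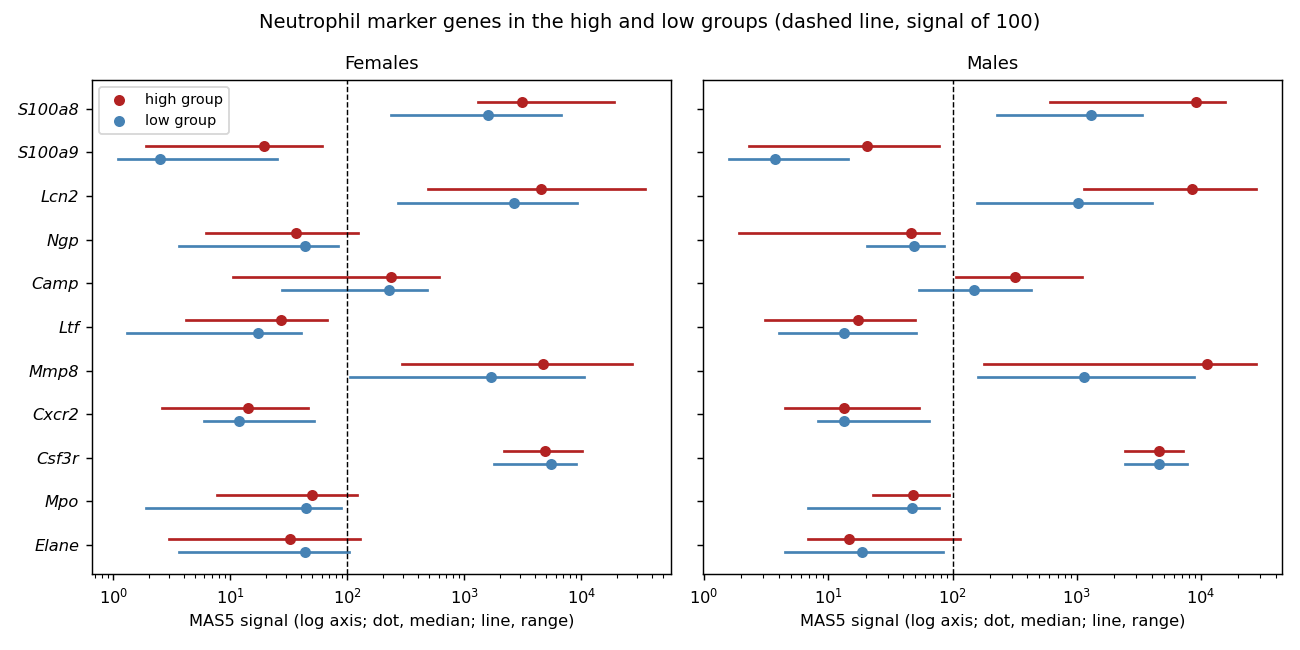
Signals of 11 neutrophil marker genes in MAS5 units on a log axis, with the median as a dot and the range as a line for the high and the low group of each sex; the dashed line marks a signal of 100. The medians of S100a8, Lcn2, Mmp8 and Csf3r lie far above that line, though the lowest Mmp8 signal in the low females, 105.2, is next to it, while S100a9, Ngp, Ltf, Cxcr2, Mpo and Elane have medians below it in both groups.

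Many of the high cultures came from mice with consecutive code numbers. In females all 8 mice with consecutive numbers from 99 on were in the high group, and they held the 8 highest signals of S100a8 and of Lcn2 among the 93 females. S100a8 in these 8 cultures was 8338 to 18798 units, against 1308 to 4346 in the other 15 high females. Lcn2 was 12533 to 34882 in the run, against 488 to 9084 in the other 15. The mice numbered 95 to 97, just before the run, were in the low group. In males all 7 mice numbered 94 to 100 were high, with S100a8 at 6120 to 15508 and Lcn2 at 9301 to 27535 units, and 3 further consecutive mice, 81 to 83, were high as well. The other 15 high males had S100a8 from 607 to 12429 units, so that the run and the other high males overlapped. Runs of 3 or 4 consecutive mice also lay in the low group, at 51 to 53, 90 to 92, 95 to 97 and the last 4 numbers in females, and at 47 to 49 and the last 3 numbers in males. Within the long runs every array is in the same group, so that the run and the group cannot be told apart there. Each leading result is therefore given with all compared arrays and without the longest high run of its sex.

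**Figure D2:**
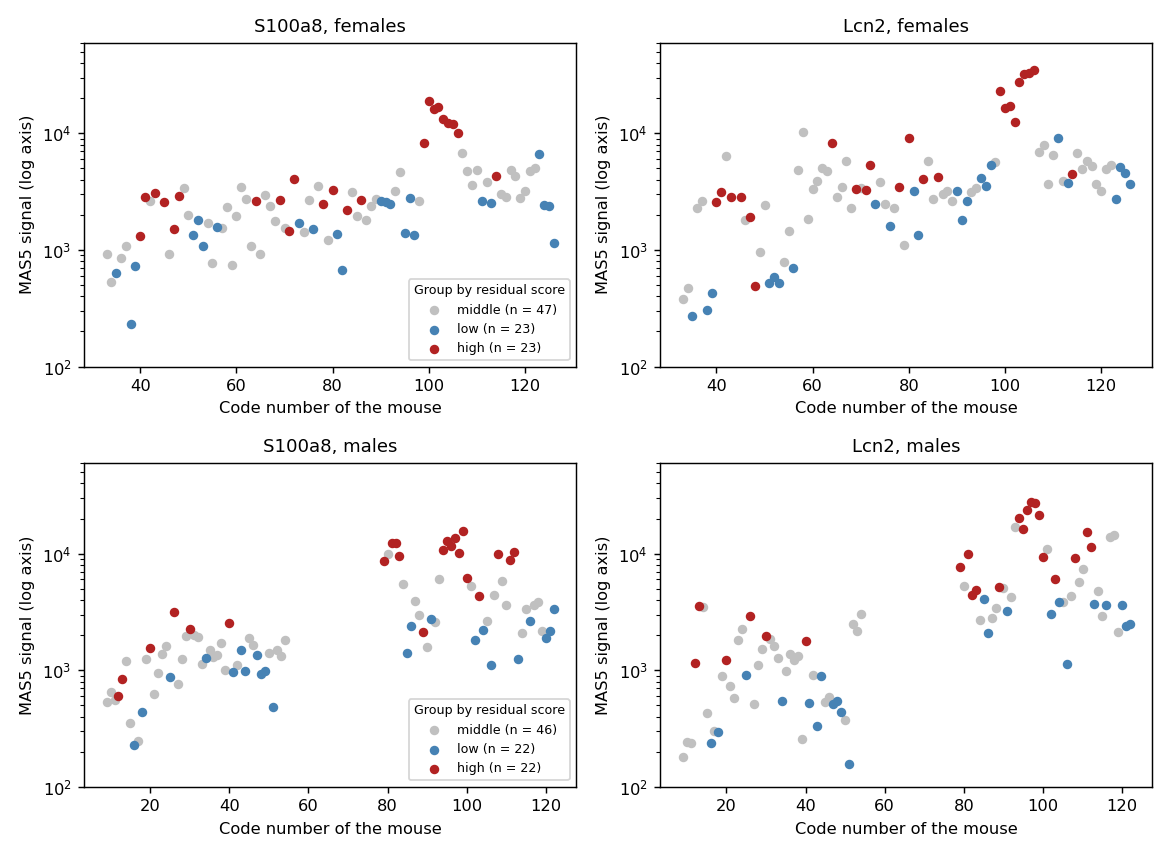
Signals of S100a8 and Lcn2 in MAS5 units on a log axis against the code number of the mouse, for females above and males below, with colours for the high, low and middle parts of the residual score. The 8 females numbered from 99 on stand above all other females for both transcripts, and the 7 males numbered 94 to 100 are all in the high group; males numbered 55 to 78 are not shown.

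Across all transcripts, 5218 of 19696 tested probe sets (26.5%) differed between the groups in females and 4806 of 19871 (24.2%) in males at a Benjamini-Hochberg adjusted p under 0.05 in limma, with the rank of the code number as a covariate. In females 2487 (12.6%) were higher and 2731 (13.9%) lower in the high group. In males 2166 (10.9%) were higher and 2640 (13.3%) lower. Most differences were small. At a further limit of 1.5-fold, 436 (2.21%) were higher and 392 (1.99%) lower in females, and 439 (2.21%) and 524 (2.64%) in males. Of 19213 probe sets tested in both sexes, 1082 (5.63%) were higher in both, 1325 (6.9%) were lower in both and 9 (0.0468%) were called in opposite directions. These shared calls are 46.5% of the females' list and 51% of the males' list. A test of the difference between the sexes called 0 probe sets, with 2182 at an unadjusted p under 0.05 and a smallest adjusted p of 0.058 (limma).

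The females' count rested on the run. Without these 8 females, 15 high and 23 low arrays were left and 8 probe sets (0.0406%) were called, with 2727 at an unadjusted p under 0.05. The 8 were Pgk1, Pus7l, Cep19, Ubap2l, Slc44a2, Ltb4r1, Dipk1a and Olfm1, and Pgk1, Ltb4r1 and Olfm1 were also called in males without their run. Without the 7 males numbered 94 to 100, 1771 probe sets (8.91%) were called between 15 high and 22 low arrays. Of the probe sets called with all arrays, 95.8% in females and 100% in males kept their direction without the runs. That fit reuses every low array and the other high arrays on which these probe sets were called, so that agreement is partly built in. The rule was then applied again to the 85 females and 83 males left, and 352 probe sets (1.8%) were called in females, 3111 (15.7%) in males and 195 (1.02%) in both. In that comparison 12 of the 12 leading genes that rose, described below, passed the test in each sex, Arg1 with differences of 4.56 in females and 4.13 in males. Of the 12 leading genes that fell, 0 passed in females and 12 in males (limma). These genes were chosen on all compared arrays, so that this is no independent test of them.

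Since S100a9 was near the background, the score was also formed from S100a8 and Lcn2 alone. This kept 14 of 23 high females and 17 of 22 high males, called 6456 (32.8%) and 6767 (34.1%) probe sets and 3501 (18.2%) in both, and left all 24 leading genes past the test in both sexes. The leading genes were chosen on groups that share these high arrays, and the long runs were not left out. This is therefore no independent test of them. A difference between the sexes was then called for 147 probe sets (0.765%). With a score from S100a8 and S100a9 instead, 127 probe sets (0.645%) were called in females, 1073 (5.4%) in males and 28 (0.146%) in both. Most leading genes then lost the call in females, among them Arg1 at 3.41, adjusted p = 0.065, and Mrc1 at -0.81, adjusted p = 0.11 (limma). In males Cd209g, Fcrls and Mrc1 lost it.

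A split by code number is no separate view, since both long runs lie among the higher-numbered mice. Among the lower-numbered mice, with codes 33 to 80 in females and 9 to 53 in males, only 1 probe set (0.00508%) was called in females, for Pgk1, and 0 in males, where 1875 and 2290 had an unadjusted p under 0.05 (limma). Among the higher-numbered mice 7453 (37.8%) were called in females and 2889 (14.5%) in males. The directions of probe sets called with all arrays held for 91.6% in the lower-numbered females and 84.2% in the lower-numbered males. These mice were part of the comparison that called the probe sets, so that the shares are no independent test. The difference between the lower and higher numbers was not tested. Lower-numbered high males were only 6, and their median S100a8 was 1894 units, against 10316 in the 16 higher-numbered high males. In the lower-numbered females median Lcn2 was 3193 units in the 12 high, 2547 in the 26 middle and 526 in the 9 low arrays. Median S100a9, near the background, was 21, 5.5 and 2.6 in the same order.

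Some measures of array quality differed between the groups, and far fewer probe sets were called with array quality in the comparison of the groups. The ratio of the 3′ to the 5′ actin control was 1.31 ± 0.11 (SD, n = 23) in the high and 1.23 ± 0.06 (n = 23) in the low females (2-sided permutation test, p = 0.00446, adjusted p = 0.0078 over 14 comparisons). The Gapdh ratio was 0.808 ± 0.026 (n = 22) in the high and 0.774 ± 0.029 (n = 22) in the low males (permutation p = 0.00018, adjusted p = 0.00044). The Gapdh ratio in females (permutation p = 0.27) and the actin ratio in males (permutation p = 0.20) did not pass. Nor did the array median (permutation p = 0.11 in females, 0.56 in males) or the number of signals above 100 (permutation p = 0.074 and 0.76). The 14 comparisons include the Tfrc control signals given below. Within the long female run the median actin ratio was 1.44, against 1.26 in the other high and 1.22 in the low females, and the median signal of an array was 71.1, 60.9 and 61.5 units. In the male run the median Gapdh ratio was 0.834, against 0.793 in the other high and 0.773 in the low males. With the array median and both ratios as covariates, 34 probe sets (0.173%) were called in females and 444 (2.23%) in males, and 8 in both. These 8 were Arg1, Stfa3, Ltb4r1, Cxcl3, Upp1, Mmp8 and an unnamed probe set, all higher, and Cnrip1, lower. The part of RNA quality in the other differences was not tested. In a fit of a slope on the residual score over every array of the rule, with quality covariates, 2328 probe sets (11.8%) were called in females and 2335 (11.8%) in males (limma).

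Arg1 had the largest fitted difference of the genes called in both sexes, against low groups that were mostly near the background. Arg1 encodes arginase 1, which turns arginine into ornithine and urea and is a classical marker of alternative activation. In females its signal was 4.2 to 43090 units with a median of 4025 in the high group, and 1.4 to 23497 with a median of 32.8 in the low group. In males it was 3.7 to 38535 with a median of 9150, against 1.6 to 7607 with a median of 47.6. Raw signals here and below are not corrected for code number, with which some leading genes changed. Median Arg1 was 86.7 in the 6 lower-numbered and 16807 in the 16 higher-numbered high males, and 15.6 and 93.2 in the low males, 11 each. Median Egln3 was 194 and 6794 in these high males and 184 and 1909 in these low males. Under 100 units, a level at which a MAS5 signal is near the background, lay 15 of 23 low and 4 of 23 high females, and 17 of 22 low and 4 of 22 high males. The groups overlapped, yet 12 of 23 high and 4 of 23 low females, and 14 of 22 high and 3 of 22 low males, had over 1000 units. The fitted log2 difference was 5.32 ± 0.81 (SE) in females, adjusted p = 4.4e-05, and 5.35 ± 0.74 in males, adjusted p = 1.7e-06 (limma). The size rests on near-background values in the low groups. With signals under 100 raised to 100 in the fit, it was 3.56 in females, adjusted p = 0.00018, and 4.17 in males, adjusted p = 8.1e-07. All 8 females of the run had 9372 units or more, while 4 of the other 15 high females passed 1000 units. Without the runs Arg1 differed by 4.09 ± 0.98 in females, adjusted p = 0.083, and by 4.47 ± 0.83 in males, adjusted p = 0.00077.

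Stfa3, a stefin that inhibits cysteine proteases and belongs to a cluster of near-identical genes that a probe set may not separate, followed. Its signal was 65.4 to 24467 units with a median of 622 in the high females and 4.5 to 5617 with a median of 163 in the low females. Male medians were 4779 and 140. It rose by 3.05 ± 0.44 in females, adjusted p = 1.8e-05, and by 4.02 ± 0.46 in males, adjusted p = 6.0e-08. The 8 females of the run, at 6578 to 24467 units, lay above every other female, and without them the difference was 1.78 ± 0.41, adjusted p = 0.072, while the male difference without its run was 3.38 ± 0.50, adjusted p = 4.2e-05. Ltb4r1, the receptor of the chemoattractant leukotriene B4, rose by 2.47 ± 0.34 in females and 2.66 ± 0.37 in males and was the only leading gene that passed the test without the run in females, by 1.97 ± 0.40, adjusted p = 0.048.

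**Figure D3:**
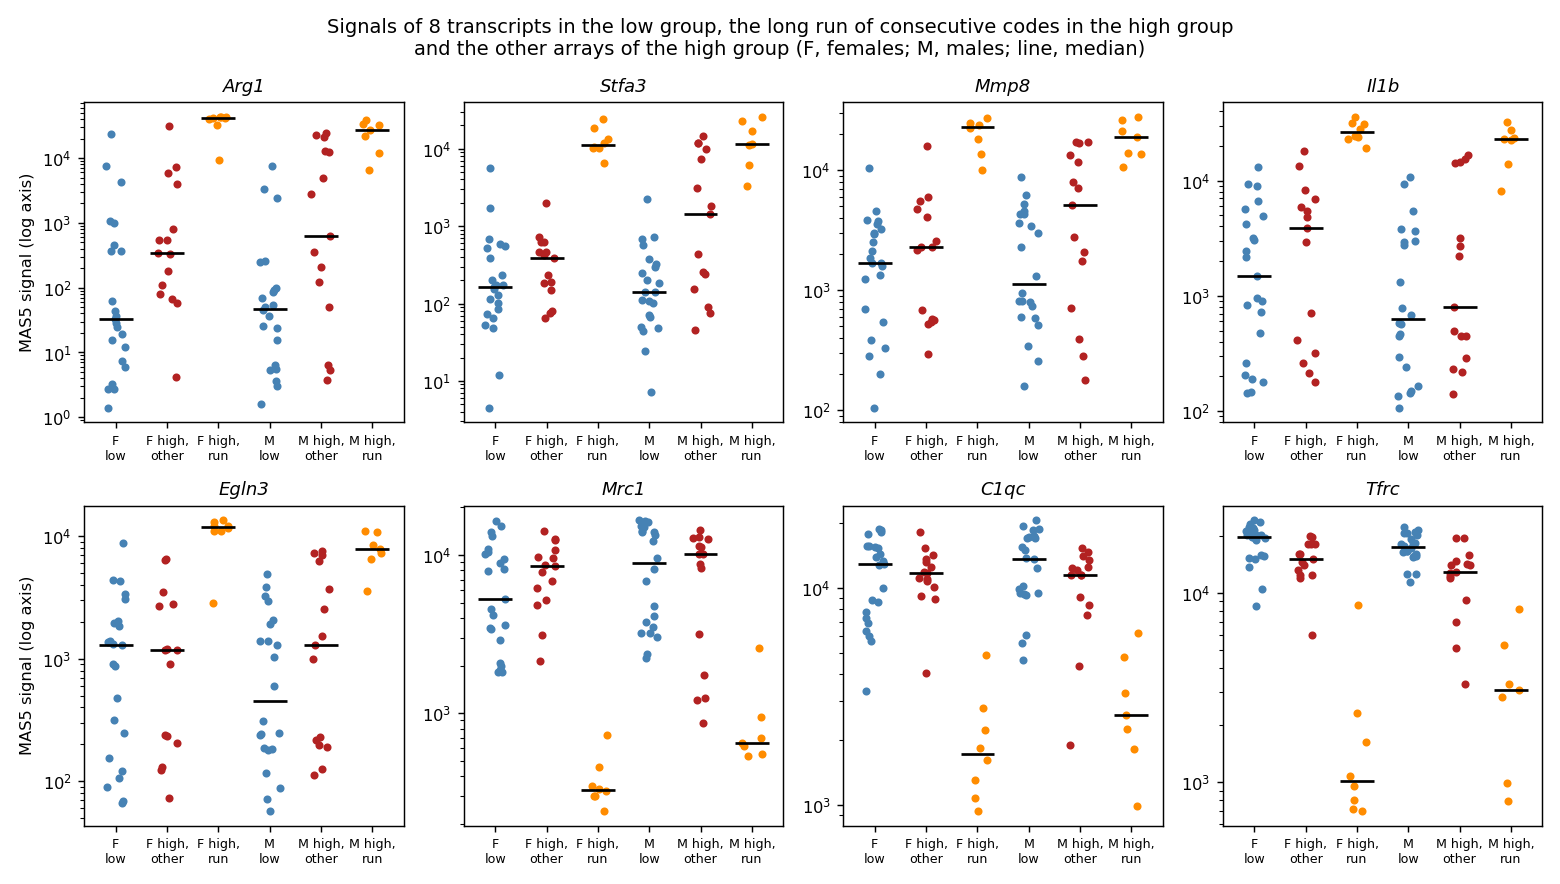
Signals of 8 transcripts in MAS5 units on a log axis; each dot is 1 array and the line is the median, for the low group, the high arrays outside the long run and the high arrays of the run (8 females and 7 males). For Mrc1, C1qc and Tfrc the run is low while the other high arrays lie near the low group, and for Arg1, Stfa3 and Mmp8 the other high arrays spread between the low group and the run.

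Among the remaining leading genes that rose, Cxcl3, Cxcl1, Il1b and Ptges belong to the inflammatory list. Cxcl3 and Cxcl1, chemokines that draw neutrophils, rose by 2.32 ± 0.36 and 1.69 ± 0.28 in females and by 3.18 ± 0.26 and 1.78 ± 0.25 in males. Cxcl3 had medians of 2348 against 574 units in females and 5046 against 347 in males. Il1b, which encodes the cytokine interleukin 1 beta, had medians of 6958 against 1490 in females and 5625 against 629 in males and rose by 2.22 ± 0.43 and 2.06 ± 0.37. In the female run Il1b was 19216 to 35637 units, above every other female. Ptges, which makes prostaglandin E2, rose by 1.77 ± 0.30 and 1.98 ± 0.23. Serpinb2, an inhibitor of plasminogen activators, rose by 1.79 ± 0.33 and 2.64 ± 0.33. Saa1, an acute-phase apolipoprotein with a near-identical neighbour in Saa2, rose by 2.25 ± 0.51 and 2.23 ± 0.36. Egln3, a prolyl hydroxylase that is itself induced in hypoxia, rose by 1.75 ± 0.28 and 1.95 ± 0.26, and the integrin gene Itga1 by 1.74 ± 0.34 and 1.83 ± 0.29. All of these passed the test in males without the run. In females without the run their adjusted p ranged from 0.072 to 0.164, with Mmp8 and Egln3 at 0.072.

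The 12 leading genes that fell came apart from these in females. Mrc1, the mannose receptor of macrophages, fell by 1.36 ± 0.31 in females, adjusted p = 0.0014, and by 1.34 ± 0.29 in males, adjusted p = 7.0e-04. Its signal was 240 to 728 units in the 8 females of the run, below every other female, while the other 15 high females had a median of 8477 and the low females 5264. In males the run had 538 to 2575 units, the other high males a median of 10182 and the low males 8880. Without the runs the difference was -0.18 ± 0.15 in females, adjusted p = 0.65, and -0.69 ± 0.24 in males, adjusted p = 0.062. Tfrc, the transferrin receptor through which cells take up iron, had a median of 12454 in the high and 19626 in the low females and fell by 1.60 ± 0.35, and in males had 10544 and 17354 and fell by 1.29 ± 0.26. The 8 females of the run had 702 to 8639 units with a median of 1017, and the other high females 5956 to 20009, so that these overlapped. Without the runs Tfrc differed by -0.31 ± 0.14 in females, adjusted p = 0.30, and fell by 0.68 ± 0.14 in males, adjusted p = 0.0025. The 3 control probe sets for this gene on the array, for its 5′, middle and 3′ parts, had ratios of mean signals, high over low, of 0.449 to 0.497 in the sexes (permutation p from 4e-05 to 0.00027).

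Cd209g, a C-type lectin gene of the multigene DC-SIGN family, was below every other female in the run, at 1.4 to 70.4 units, but the other high females had a median of 2922 against 756 in the low females. Its fitted difference of -1.61 ± 0.56 in females turned to 0.29 ± 0.34 without the run, and with signals under 100 raised to 100 it was -0.67, adjusted p = 0.14. In males it fell by 2.68 ± 0.55 and, without the run, by 1.84 ± 0.56, adjusted p = 0.035. Gpr162, an orphan receptor, fell by 1.71 ± 0.36 and 1.60 ± 0.24. Its medians were 1239 against 4184 in females and 926 against 2358 in males, and only 7.23% of pairs of a high and a low male had the higher signal in the high male. Ighm, the heavy chain of immunoglobulin M, fell by 1.45 ± 0.45 and 2.08 ± 0.38, beside B cell defining markers Cd79a and Ms4a1 with medians under 100 in both groups of both sexes. Another Ighm probe set fell by 1.62 and 2.45. A further one did not move, at 0.07 in females, adjusted p = 0.62, and -0.07 in males, adjusted p = 0.56 (limma). Cd55, a regulator of complement, fell by 1.46 ± 0.36 and 1.60 ± 0.33, and Fcrls, an Fc receptor-like gene, by 1.35 ± 0.39 and 1.62 ± 0.38. Rapsn, Rnase6, Fgd2, Sult1a1 and Tbc1d4 also fell in both sexes, by 1.27 to 1.93 in females and 1.44 to 1.69 in males. None of the 12 passed the test without the run in females, where adjusted p ranged from 0.298 to 0.801, and in males all passed except Mrc1. With the array quality covariates 0 of the 12 passed in females and 4 in males, namely Rnase6, Gpr162, Sult1a1 and Tfrc, and Mrc1 differed by -0.70 in males. Of the 12 that rose 5 passed in females and 10 in males in that fit. On the raw medians, the run lay further from the low group than the other high arrays did for 24 of 24 leading genes in females and for 23 of 24 in males, and the other high arrays lay on the same side of the low group for 18 and 23 of 24.

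**Figure D4:**
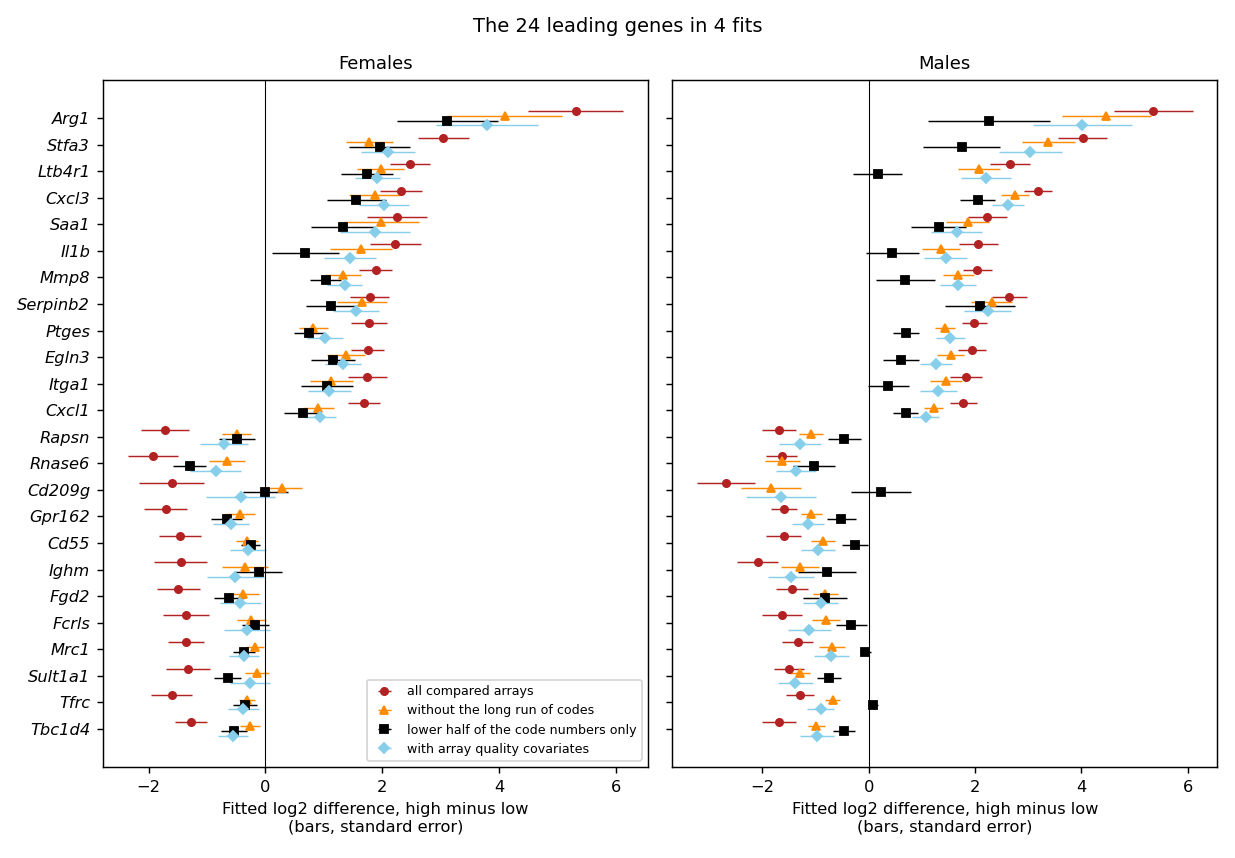
Fitted log2 differences between the high and the low group, with standard errors, for the 24 leading genes in females and males with all compared arrays, without the long run of codes, in the lower-numbered mice only, and with 3 array quality covariates. In females the 12 genes that rose keep a positive difference in every fit, and the 12 genes that fell lie between -0.66 and 0.29 without the run; in males the differences without the run stay nearer to those with all arrays.

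Genes of secondary granules and late neutrophils were called higher or were not called. Over all genes, 1 probe set each, 14.1% of 10083 were higher and 15.7% lower in females, and 12.1% of 10165 were higher and 14.6% lower in males. Without the runs 3 genes were higher and 2 lower in females, with 771 and 741 at an unadjusted p under 0.05, and 501 and 477 in males, with 1251 and 1354 (limma). Of 7 tested genes of the secondary granule list outside the score, 4 rose in females and 5 in males, while 0 fell. The list also holds genes that encode no granule protein, among them the receptor gene Ltb4r1, which is counted here as risen in both sexes. Cd177, a surface antigen of neutrophils, rose by 1.39 and 1.26 on the log2 scale, Orm1, an acute-phase glycoprotein, by 1.64 and 1.84, and Hp, haptoglobin, by 0.61 and 0.33. Of 18 tested tertiary granule and late neutrophil genes, 12 rose in females and 13 in males, 0 fell and 6 and 5 were not called. The median difference of the list was 0.51 in females and 0.67 in males, against medians of -0.00 and -0.02 over all genes. Trem1, which amplifies inflammatory signals, rose by 1.06 and 1.76, Mcemp1 by 1.29 and 1.53 and Lrg1 by 0.97 and 0.85. Mmp9, gelatinase B, was tested and was not called. Only 2 of 9 genes of the primary granule list passed the filter on low signals. Prtn3, which encodes the granule protein proteinase 3, rose in females by 1.09. The other, Igfbp4, encodes a secreted binding protein of insulin-like growth factors, not a granule protein, and fell in both sexes by 0.48 and 0.57. Without the runs 1 gene of the secondary granule list, Ltb4r1, was called in females and 3 in males, where Cd177 and Hp were not called. The late neutrophil list then had a median of 0.48 in females, with 0 called and 12 higher at an unadjusted p under 0.05 (limma), and of 0.47 in males, with 8 called.

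The inflammatory list had 20 of 38 tested genes higher and 2 lower in females, and 23 higher and 2 lower in males, with medians of 0.28 and 0.37. Ptgs2, the inducible cyclooxygenase, rose by 1.49 and 1.40, Il1a by 1.36 and 1.30 and Cxcl2 by 1.40 and 1.68. Regulators that restrain the same signalling rose too, Socs3 by 0.73 and 0.90 and Tnfaip3 by 0.40 in each sex. Not all members moved that way. Il10, an anti-inflammatory cytokine, fell by 0.78 and 1.29, and Tnf fell by 0.59 in females and had a difference of -0.04 in males. Without the runs the medians were 0.23 in females, with 0 called and 15 higher at an unadjusted p under 0.05 (limma), and 0.35 in males, with 17 higher and 1 lower.

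Of 26 tested genes of glycolysis and the hypoxia response, 22 rose in each sex (84.6%, against 14.1% and 12.1% of all genes) and 0 fell, with medians of 0.36 and 0.47. Beside Egln3, Ankrd37, a target of the hypoxia-inducible factors, rose by 1.62 and 1.35 and Vegfa, which stimulates vessel growth, by 1.01 and 0.62. The glucose transporter Slc2a1 rose by 0.74 and 0.93, the lactate exporter Slc16a3 by 0.67 and 1.06 and the glycolytic enzymes Ldha and Tpi1 by 0.36 and 0.29 in females and 0.42 and 0.43 in males. Without a correction for code number, the median of the list was 0.78 above the low group in the female run and 0.07 above it in the other high females. In males these values were 0.85 and 0.25. Without the runs 0 genes of the list were called in females, with 18 higher at an unadjusted p under 0.05 (limma), and 19 in males.

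Promoters are shown for Egln3 and Ankrd37 of the hypoxia response and for Cxcl3 and Cxcl1 of the inflammatory list. These genes were picked for the largest differences among list members that were called alike in both sexes and held a match. A match in them was therefore fixed in advance. The promoter windows run from 250 bases before to 50 after the start of the gene on its own strand (RefSeq, GRCm38.p6). Egln3 lies at chr12:54203825-54204124 on the minus strand, Ankrd37 at chr8:45999801-46000100 on the minus strand, Cxcl3 at chr5:90785851-90786150 and Cxcl1 at chr5:90890995-90891294, both on the plus strand. Capitals mark the hypoxia response core, ACGTG or GCGTG on either strand, in the first pair.
Egln3: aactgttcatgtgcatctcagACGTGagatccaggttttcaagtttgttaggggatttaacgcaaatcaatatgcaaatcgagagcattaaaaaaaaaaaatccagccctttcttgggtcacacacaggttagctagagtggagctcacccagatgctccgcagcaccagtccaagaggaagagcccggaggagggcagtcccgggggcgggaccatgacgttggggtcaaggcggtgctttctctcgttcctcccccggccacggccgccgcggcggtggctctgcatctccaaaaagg
Ankrd37: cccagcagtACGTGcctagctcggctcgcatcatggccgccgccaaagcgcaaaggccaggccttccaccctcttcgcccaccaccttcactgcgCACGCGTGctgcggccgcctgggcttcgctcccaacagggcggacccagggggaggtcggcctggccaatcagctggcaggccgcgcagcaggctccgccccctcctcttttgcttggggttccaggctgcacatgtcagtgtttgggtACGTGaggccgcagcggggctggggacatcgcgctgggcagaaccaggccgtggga
In the second pair they mark GGGANNNNCC, letters bound by NF-kappa B, on either strand.
Cxcl3: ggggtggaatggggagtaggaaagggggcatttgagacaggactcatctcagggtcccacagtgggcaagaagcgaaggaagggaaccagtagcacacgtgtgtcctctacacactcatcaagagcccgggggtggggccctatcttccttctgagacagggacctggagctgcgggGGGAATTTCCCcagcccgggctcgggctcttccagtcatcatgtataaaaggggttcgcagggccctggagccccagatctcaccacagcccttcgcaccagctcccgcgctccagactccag
Cxcl1: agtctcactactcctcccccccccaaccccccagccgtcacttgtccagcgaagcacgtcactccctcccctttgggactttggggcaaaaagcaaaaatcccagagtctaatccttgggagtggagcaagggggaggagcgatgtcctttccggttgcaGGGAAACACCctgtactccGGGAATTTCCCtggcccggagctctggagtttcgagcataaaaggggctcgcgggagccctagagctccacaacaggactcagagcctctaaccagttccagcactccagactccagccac
The hypoxia core stood once in Egln3 and 4 times in Ankrd37, where a pair of its matches overlap. It was found in 24 of 25 list genes with a promoter in the table (96%) and in 46.7% of 27025 genes. The kappa B letters gave 2 matches in Cxcl3, the same site read on both strands, and 3 in Cxcl1. At least 1 match was found in 16 of 30 genes of the inflammatory list with a promoter (53.3%) and in 22.9% of the 27025 genes. Il1b and Ptges of that list held no kappa B letters and so could not be picked. The windows of Mmp8, Il1b, S100a8 and Lcn2 held none of these letters. The sterol response letters TCACNCCAC were found in 1 of 12 genes of the sterol synthesis list with a promoter (8.33%) and in 1.44% of the 27025 genes. Those 27025 include genes that were not tested here, and they were not matched to the lists in base composition. A match is a description of the sequence and not a measured site.

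Transcripts of sterol synthesis were lower in the high group. Of 16 tested genes 10 fell in females and 15 in males, and 0 rose, against 15.7% and 14.6% of all genes that were lower. The medians were -0.42 and -0.68. Cyp51 fell by 0.73 and 1.32, Sqle, squalene epoxidase, by 0.66 and 1.00, Insig1, a sensor of sterols, by 0.64 and 1.05 and Hmgcs1, which makes the precursor of mevalonate, by 0.48 and 0.77. Without a correction for code number the list's median was -0.94 in the female run and 0.06 in the other high females, and -1.33 and -0.33 in males. Without the runs 0 were called in females, with 5 lower at an unadjusted p under 0.05 (limma), and 8 fell in males.

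**Figure D5:**
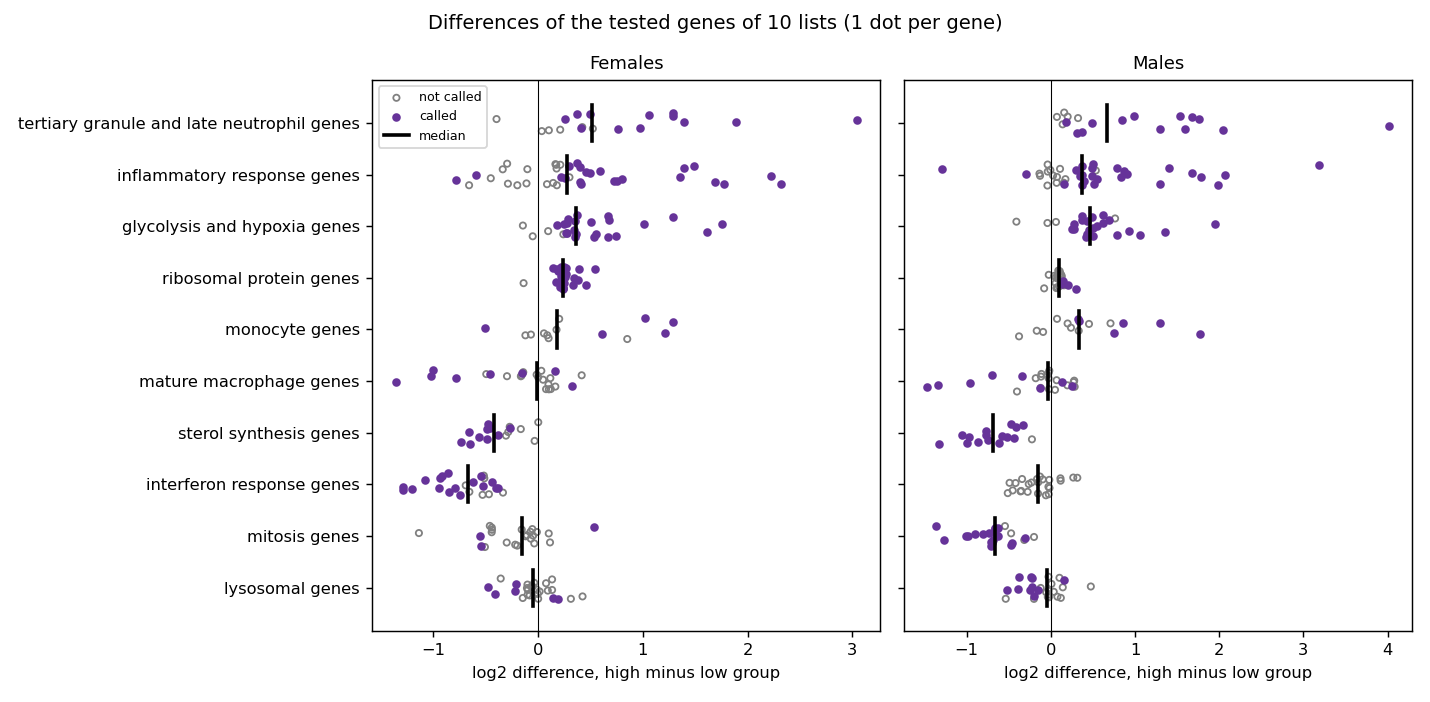
Fitted log2 differences between the high and the low group for each tested gene of 10 lists, with filled dots for genes called at an adjusted p under 0.05 and the list's median as a black line. The late neutrophil, inflammatory and glycolysis and hypoxia lists lie mostly to the right and the sterol list mostly to the left in both sexes. Interferon genes were called in females only and mitosis genes mainly in males, though the test of the difference between the sexes called 0 genes of either list.

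Macrophage genes moved unevenly. Of 24 tested genes of mature macrophages, 2 rose (8.33%) and 6 fell (25%) in each sex, with medians of -0.00 and -0.04, against 14.1% higher and 15.7% lower over all genes in females and 12.1% and 14.6% in males. Without the runs 0 were called in females, with 2 higher and 1 lower at an unadjusted p under 0.05, and 1 fell in males (limma). The complement genes C1qb and C1qc fell by 0.78 and 1.00 in females and 0.70 and 0.96 in males, Gas6, a bridge to dying cells, by 1.02 and 1.47 and Trem2, a lipid receptor, by 0.46 and 0.34. Cd14, the co-receptor for lipopolysaccharide, rose by 0.33 and 0.25. C1qc had a median of 1720 units in the female run, 11761 in the other high and 12852 in the low females, and 2590, 11543 and 13652 in males. Of the alternative activation list, Arg1 and the scavenger receptor Cd163 rose and Mrc1, Clec10a and Stab1 fell, in both sexes, so that its members did not move together. Among transcription factors, Cebpb rose by 0.40 in each sex and Klf4 by 0.87 and 0.79, and Maf, which is linked to mature resident macrophages, fell by 0.78 and 0.71. Without the runs Cebpb, Maf and Klf4 were not called in females, where Maf differed by -0.02, and Cebpb at 0.27 and Maf at -0.34 passed in males. Pparg, a regulator of lipid storage, fell by 0.98 and 1.00. Of the monocyte list, Vcan rose by 1.22 and 1.77 and F13a1 by 1.02 and 0.86. Without the runs 0 genes of the transcription factor, monocyte and alternative activation lists were called in females, with 1, 2 and 2 higher at an unadjusted p under 0.05 (limma), and in males 1 rose and 1 fell, 2 rose, and 2 rose and 1 fell. Ppbp, a platelet chemokine, rose by 1.56 and 2.81. Of the other megakaryocyte markers, Itga2b was called in neither sex and Pf4 rose in males only, by 0.50. Of 4 tested genes of the erythroid and megakaryocyte list, 0 were called in females and 1 in males without the runs. Slc7a11, the cystine transporter, rose by 1.64 and 1.10 and Hmox1, heme oxygenase 1, by 0.55 and 0.59. Their lists moved less. Of 20 amino-acid stress genes 4 rose and 1 fell in each sex, with medians of -0.07 and -0.06. Of 12 NRF2 target genes 4 rose in females and 5 in males, and 0 fell. Without the runs 0 genes of either list were called in females, and 1 and 2 rose in males (limma).

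Several lists were called mainly in 1 sex. Of 24 tested interferon response genes, 17 fell in females with a median of -0.67, among them Ifit3 and Cxcl10 by 1.29 each, and 0 were called in males, where 2 were lower at an unadjusted p under 0.05 (limma) and the median was -0.15. In the female run the median of the list was 1.52 below the low group and in the other high females 0.18 below it. Males had a median of -0.91 in the run and 0.11 in the other high arrays. Of 23 mitosis genes, 19 fell in males with a median of -0.66, which was 0.37 in the lower-numbered males, and 2 fell and 1 rose in females with a median of -0.15. Cenpf fell by 1.01 in males and its difference in females was -0.46. Of 24 ribosomal protein genes, 23 rose in females and 4 in males, by a median of 0.24 and 0.09. The test of the difference between the sexes called 0 genes of these 3 lists, with 7 interferon, 9 mitosis and 9 ribosomal protein genes at an unadjusted p under 0.05 (limma), so that a difference between the sexes was not shown. Without the runs 0 interferon and 0 ribosomal protein genes were called in either sex. At an unadjusted p under 0.05, 4 interferon genes were then lower in females and 1 was higher in males, and 3 ribosomal protein genes were higher and 1 lower in females and 1 was lower in males (limma). Of the mitosis genes 2 fell in males, with 18 lower at an unadjusted p under 0.05 and a median of -0.47, and 0 were called in females, with 0 at an unadjusted p under 0.05 and a median of 0.18 (limma).

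The 24 males numbered 55 to 78 took no part in the comparison. Splitting them at the middle of a residual score computed in the same way gave 12 high and 12 low arrays, with 0 of 23558 probe sets called and 2850 at an unadjusted p under 0.05 (limma). Of the 12 leading genes that rose 6 had the same direction as in the other males, and of the 12 that fell 10. These are directions in the fit with the code rank. On the raw medians all 6 of these rising genes were lower in the high group. Stfa3 had medians of 271 against 1751 and a fitted difference of 0.61 ± 0.62, and Serpinb2 3810 against 14080 and 0.16 ± 0.37. Arg1 had a difference of -0.58 ± 1.04 (SE), with medians of 824 in the high and 3226 in the low of these males. Ltb4r1, Il1b, Saa1, Egln3 and Cxcl1 also had negative differences, and Tfrc one of 0.40 ± 0.10, adjusted p = 0.35. S100a8 ranged from 745 to 31991 and Lcn2 from 839 to 11828 units in these 24 males, and Arg1 passed 1000 units in 14 of them.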

How the data were processed

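Each of 207 mice gave 1 array, and every array came from a different animal. The titles of the female arrays numbered 106 and 119 carry a further suffix that the labels do not explain. The array numbered 106 is in the long run of the high females. The authors deposited signal intensities from MicroArray Suite 5.0 (MAS5). In MAS5 a probe set is a group of short probes, and the signal is what remains after subtraction of the signal of probes with a wrong middle base. Arrays were scaled to their total brightness before deposit. MAS5 signals of weak transcripts are unsteady, and logs were therefore taken of the signal + 1, on which scale a fold change of a low gene is understated. Beside the 45037 probe sets open to testing, the arrays carry 64 control probe sets, used only for quality. A probe set was tested in a sex where 1 in 3 or more of its arrays reached 100 units.

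The rule for the groups, the 30 gene lists, the tests and most alternatives were chosen with earlier results of these data known. The high and the low group of each sex were compared in limma 3.58.1 (R 4.3.3) with the rank of the code number as a covariate, and p-values were adjusted by Benjamini-Hochberg over all tested probe sets. The score genes were left out of the results. Differences are log2 values, high minus low, with standard errors. The sexes were compared by the difference of their effects in a joint fit, and array quality by 100000 permutations. The fit was checked on simulated data. The number of arrays limits the precision.

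Gene symbols came from the platform annotation, which gives 1 symbol for 34945 probe sets and more than 1 for 932. Of these single symbols, 34741 were found in RefSeq (GRCm38.p6). The brightest probe set stood for a gene. Named were the 12 genes with the largest difference in each direction, by the smaller of the sexes, among genes called alike in both, the tested genes of 3 granule lists, up to 4 genes of each other list and the cell type markers. Genes called without the runs or with quality covariates, and list members beyond these, were named after their values were seen. Alternatives changed the scaling, the filter, the pseudocount, the covariates, the score, the size of the groups, the test and the mice included.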

Additional observations from a re-analysis of the deposited data

How the results depend on the processing

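Shares here are of all tested probe sets, where the comparison of the report called 26.5% in females, 24.2% in males, 5.63% higher and 6.9% lower in both sexes and 0 with a difference between the sexes. Scaling every array to one median left the first 3 counts within 1.5 times of these, and so did a pseudocount of 16, which called a difference between the sexes for 0.0573%. Without a filter on low signals 3.39% were called in both sexes, of 45034 tested. Without the code number as a covariate 11.9% were called in females, 13.6% in males and 4.33% in both. A score from S100a8 and S100a9 gave 0.645%, 5.4% and 0.146%. The Mann-Whitney test with Bonferroni correction, named in the study's methods for comparing the sexes, gave 0.0457%, 0.121% and 0%. It was run without the code number as a covariate, so that more than the test changed. No leading gene was then called in females, and only Gpr162 in males. Array quality covariates gave 0.173%, 2.23% and 0.0416%, the 3′ to 5′ ratios alone 0.746%, 1.98% and 0.172%, and the quality covariates with a slope over every array 11.8%, 11.8% and 4.24%. With mitosis and stromal genes as covariates 7.5% were called in males and 4.26% in both. The lower-numbered mice gave 0.00508%, 0% and 0%, and the higher-numbered males 14.5%. Without the long runs the shares were 0.0406%, 8.91% and 0.0156%. The rule applied again without them gave 1.8%, 15.7% and 1.02%, and a slope without them 0.975% in females and 0.635% in both. A difference between the sexes was called for 0.552% with a score from Lcn2 alone, 0.765% with S100a8 and Lcn2, 0.0885% with groups of 1 in 3 arrays, 1.39% with a slope, 7.74% with the males numbered 55 to 78 kept, 0.0156% with signals under 100 raised to 100 and 0.152% with the rule applied again. Fits on part of the mice hold fewer arrays, and otherwise the cause was not tested.

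The direction of some values turned. Without a filter the median of the B cell list in females was 0.012. With mitosis and stromal covariates Ccna2 was at 0.018 and the lipid uptake list at 0.018 in males. Mxd1 was at -0.19 in males with all males kept. In females Cd209g was at 0.29 and Rpl11 at -0.015 without the run, Cd209g at 0.10 with the rule applied again, and Cd209g at 0.41 and Cd4 at 0.025 with a slope without the run. In the lower-numbered females Prtn3 was at -0.0066, Irf8 at -0.092, Pparg at 0.077, Aars at 0.096, Ccna2 at 0.075, Tk1 at 0.092, Mcm3 at 0.051 and Pdgfrb at -0.15. In the lower-numbered males Cd209g was at 0.22, Tfrc at 0.082, Vcan at -0.44, Lipa at 0.0022, Fabp5 at 0.075, Shmt2 at 0.13, Ccna2 at 0.40, Mki67 at 0.39, Ube2c at 0.59, Nusap1 at 0.28, Tk1 at 0.36, Mcm3 at 0.090, Rrm2 at 0.11, Mcm5 at 0.15, Gusb at 0.0011 and Lgmn at 0.046, with the mitosis list at a median of 0.37 and the lipid uptake list at 0.034. Over all alternatives, 3852 of 5458 values of named genes stayed on the same side of the threshold, with their direction where they had been called, 1473 lost the call, 31 turned and the others gained the call. Of 672 list medians 521 moved by less than the median standard error of the list's genes, 147 by more, and 4 turned.

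The fits without the long runs, the floor of 100 units, the score without S100a9, the ratios alone and the slope with quality covariates were chosen after seeing the data. No paired analysis was possible because the sample numbers name single mice and pair none across the groups. The groups hold over 5 arrays each, so that single arrays were not left out in turn. MAS5 signals near the background limit what can be said of S100a9 and of most primary granule genes, and the lower-numbered high males are few.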
